A study of Mus musculus with 12 samples.

Results

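The 40 genes described here are interferon stimulated genes (ISGs) that lie outside the Oas, Ifit and interferon-inducible GTPase families. They were taken by name from a list, out of 53458 annotated genes, and each name matched 1 gene. All 40 passed the filter on low counts, which left 18095 genes for testing. RNA was sequenced from mouse type 1 conventional dendritic cells (cDC1) of the inguinal lymph node in 12 libraries, 3 in each of 4 groups. NoTumor-NoCD40 mice had neither a tumor nor a CD40 agonist, NoTumor-CD40 mice received the agonist without a tumor, Tumor-NoCD40 mice carried a subcutaneous KPC tumor without the agonist, and Tumor-CD40 mice had both. KPC denotes tumor cells of a genetic mouse model of pancreatic carcinoma, and CD40 is a receptor of dendritic cells that CD40 ligand on T cells engages to license them. The labels name no strain, age, agonist clone, dose, time or sort gate. Whether libraries within a group stem from different animals is not stated, and the p-values then reflect the spread between these libraries alone.

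Type I interferons bind the IFNAR1 and IFNAR2 receptor and, through JAK kinases, activate a complex called ISGF3, which contains STAT2 and IRF9. ISGF3 binds a DNA element called the interferon-stimulated response element (ISRE), while interferon gamma acts mainly at gamma-activated sites (GAS). Genes that carry these elements encode antiviral enzymes, nucleic acid sensors, the ubiquitin-like modifier ISG15 and brakes on the pathway. cDC1 specialize in presenting antigens of dead cells to CD8 T cells, a function that type I interferon is known to support.

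Promoter sequences are shown first because an ISRE is the element by which many of these genes are known to be switched on. Of the 40 genes, 30 had a promoter in the RefSeq table (build GRCm38.p6), which spans 250 bases before and 50 after the transcript start. The ISRE core was searched on both strands as GAAA and GAAA with any 2 bases between them, and it matched in 11 of the 30 genes (36.7%) against 1079 of 27025 genes (3.99%) overall. With the stricter pattern, the same letters followed by CT, 6 of 30 (20%) and 82 of 27025 (0.303%) matched. The GAS letters, TTC and GAA with any 3 bases between them, can overlap an ISRE match and were present in 6 of 30 (20%) against 9.55% of all genes. A match describes letters and not a bound site.

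The following 5 upstream stretches belong to members that rose with the agonist averaged over tumor states and hold a match before the start. They are printed 5′ to 3′ on the strand of the gene, with the bases of an ISRE core match in capitals. Rsad2 lies upstream at chr12:26456453-26456702, minus strand, Isg15 at chr4:156200819-156201068, minus strand, Ddx60 at chr8:61927837-61928086, plus strand, Trim30d at chr7:104507850-104508099, minus strand, and Bst2 at chr8:71537473-71537722, minus strand.
Rsad2: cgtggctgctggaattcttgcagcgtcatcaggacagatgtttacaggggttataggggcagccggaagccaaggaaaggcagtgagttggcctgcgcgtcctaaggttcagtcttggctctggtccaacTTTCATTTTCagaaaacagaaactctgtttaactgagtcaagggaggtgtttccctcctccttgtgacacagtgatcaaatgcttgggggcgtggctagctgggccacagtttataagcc
Isg15: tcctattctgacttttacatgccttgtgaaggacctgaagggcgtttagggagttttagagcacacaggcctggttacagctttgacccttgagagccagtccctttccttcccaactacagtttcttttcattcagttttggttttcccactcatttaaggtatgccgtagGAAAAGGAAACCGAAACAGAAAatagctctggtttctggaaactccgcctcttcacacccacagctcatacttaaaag
Ddx60: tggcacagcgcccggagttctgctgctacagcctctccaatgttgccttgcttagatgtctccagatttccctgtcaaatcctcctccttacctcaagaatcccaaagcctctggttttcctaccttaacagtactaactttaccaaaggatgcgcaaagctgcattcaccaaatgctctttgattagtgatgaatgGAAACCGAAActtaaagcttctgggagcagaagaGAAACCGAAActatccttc
Trim30d: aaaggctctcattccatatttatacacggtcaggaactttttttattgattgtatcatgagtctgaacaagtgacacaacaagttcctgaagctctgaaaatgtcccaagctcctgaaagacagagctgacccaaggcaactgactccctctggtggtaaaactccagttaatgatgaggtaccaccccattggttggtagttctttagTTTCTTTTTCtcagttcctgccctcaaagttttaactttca
Bst2: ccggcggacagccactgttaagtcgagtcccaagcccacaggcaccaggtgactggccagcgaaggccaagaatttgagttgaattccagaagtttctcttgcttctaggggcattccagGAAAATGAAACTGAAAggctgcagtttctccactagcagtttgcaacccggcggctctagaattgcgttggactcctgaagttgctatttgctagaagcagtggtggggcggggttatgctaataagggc
Counted from the first base of a match to the start, Rsad2 had 1 match at 120 bases, and Isg15 had 3 overlapping matches at 78, 72 and 66 bases. Ddx60 had separate matches at 53 and 19 bases, Trim30d had 1 at 41 bases, and Bst2 had overlapping matches at 130 and 124 bases. Shisa5 came before Bst2 by fold change, but its match lay 32 bases after a start and is not printed.

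The same letters were also present in members that did not pass the test, of which 4 had a match before the start. Windows of 30 bases around it, in the same orientation and with the match in capitals, are shown for comparison with the risen genes.
Trim30a: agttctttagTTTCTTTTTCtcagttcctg
Trim30d: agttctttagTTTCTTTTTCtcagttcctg
Phf11b: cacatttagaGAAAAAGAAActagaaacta
Slfn5: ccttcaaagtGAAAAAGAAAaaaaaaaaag
Slfn8: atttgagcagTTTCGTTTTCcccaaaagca
The 30 bases of Trim30a and Trim30d are identical, and the match began 36 and 41 bases before their starts. Trim30d rose by 0.81 on the log2 scale averaged over tumor states, and Trim30a had 0.47 ± 0.23 (SE) with edgeR's adjusted p = 0.308. A match was present in 6 of the 16 members with a promoter that rose in that average and in 5 of the 14 that did not pass.

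Levels are normalized CPM, a count scaled by library size, and are compared only within a gene. Fold changes are log2 with their standard error (SE). A member is said to rise where edgeR's quasi-likelihood F test, two-sided and Benjamini-Hochberg adjusted over all 18095 genes, gave an adjusted p under 0.05. Each library summed to between 22855143 and 27163393 expected counts. All 10 cDC1 markers were detected, with a summed level of 2040 to 6130 CPM per library. Xcr1, a chemokine receptor of cDC1, ranged from 49.5 to 780 CPM. It was lowest in NoTumor-CD40 3 and Tumor-NoCD40 3, where the 12 mature dendritic cell markers summed to 31600 and 24000 CPM against 5460 to 23600 in the other libraries. In such pooled cells, more cells of a type and more RNA per cell cannot be told apart.

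The CD40 agonist raised many of the 40 genes with and without a tumor, and the tumor moved none past the threshold. The members were chosen with earlier results of these data known, so their shares beside those of all genes are a description. Without tumor, 13 of 40 members (32.5%) rose against 1.36% of all genes tested, and none fell, where 0.0829% of all genes did. With tumor, 10 members (25%) rose against 0.641%, and none fell (0.0442%). Averaged over tumor states, a contrast of both agonist comparisons with no shared library, 21 members (52.5%) rose against 2.17%, and none fell (0.343%). The log2 fold change was above 0 in 37, 37 and 38 members in the same order, and in 47.7%, 48.1% and 46.8% of all genes. The median log2 fold change of the 40 was 0.75 without tumor, 0.68 with tumor and 0.69 on average, where all genes had medians of −0.04, −0.02 and −0.03. Isg15, Rsad2, Helz2, Mov10, Pml, Xaf1 and Ifi27l2a rose in both agonist comparisons, 7 members where 0.188% of all genes did so. A further 6 passed only the threshold without tumor and 3 only that with tumor, and 5 passed in the average alone. The remaining 19 members passed in none of these 3 tests.

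Some markers of other cells moved with the agonist as well, and without tumor some of cell state did. The 12 mature dendritic cell markers summed to 5460 to 14100 CPM in NoTumor-NoCD40 and 13800 to 31600 in NoTumor-CD40 libraries, and to 6470 to 24000 in Tumor-NoCD40 and 12000 to 15600 CPM in Tumor-CD40 libraries. Without tumor, 12 of 12 had a fold change above 0 (median 1.2) and 2 rose, and with tumor 7 of 12 were above 0 (median 0.03) and 0 rose in edgeR. The 10 cDC1 markers summed to 4480 to 5630 and 2820 to 4800 CPM without tumor and to 2040 to 6130 and 2780 to 3590 CPM with tumor, agonist second, with medians of −0.53 and −0.26 and 0 called in edgeR. Of 8 plasmacytoid markers, 6 were above 0 in the average and 3 rose, among them Bst2, which is itself a member. The 3 Langerhans cell markers summed to 166 to 237 and 31.8 to 182 CPM without tumor and to 70.6 to 151 and 33.8 to 49 CPM with tumor, agonist second. In the average, 0 of them were above 0 and 1 fell. The 8 monocyte markers summed to 445 to 592 and 103 to 299 CPM without tumor and to 143 to 432 and 186 to 331 CPM with tumor, and 1 rose and 1 fell in the average. The part of all these markers in the members' values was not tested.

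**Figure D1:**
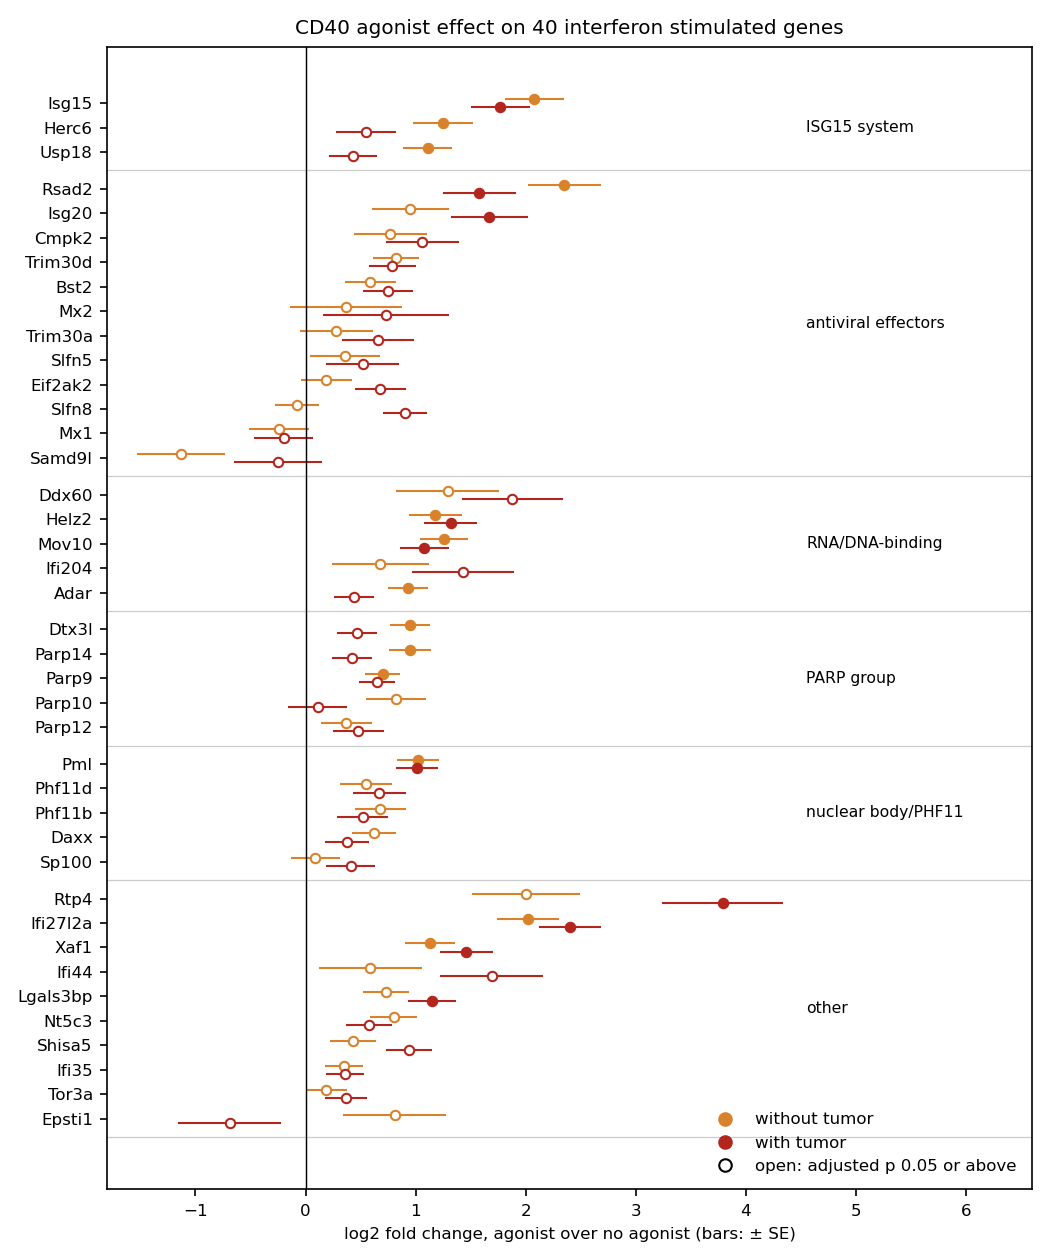
Log2 fold change of each of the 40 genes, agonist over no agonist, without tumor (orange) and with tumor (red), grouped by role, with bars of ± SE. Filled points passed the adjusted threshold. Rtp4 with tumor lies farthest right at 3.79, and Samd9l without tumor farthest left at −1.13.

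The counts of risen members depended on single libraries, since each group has 3. Without NoTumor-NoCD40 1, 2 or 3, 4, 2 and 2 members rose without tumor, and without NoTumor-CD40 1, 2 or 3, 3, 17 and 4 did. Against 1.36% with all libraries, 0.62%, 0.116% and 0.106% of all genes rose in the former fits and 0.398%, 3.33% and 0.243% in the latter. Isg15 and Ifi27l2a were called in all of these fits. With tumor, 6, 6 and 3 members rose without Tumor-CD40 1, 2 or 3, and 2, 14 and 4 without Tumor-NoCD40 1, 2 or 3. Against 0.641% with all libraries, 0.493%, 0.536% and 0.223% of all genes rose in the former fits and 0.132%, 0.649% and 0.224% in the latter. Ifi27l2a and Rtp4 were called in each of these. Of the 7 members that rose in both comparisons, Ifi27l2a was thus the one that kept both calls throughout, and Isg15 lost that with tumor without Tumor-NoCD40 1. Without tumor, the call was lost in 5 of 6 fits for Helz2, Mov10 and Pml, in 4 for Xaf1 and in 2 for Rsad2. With tumor, it was lost in 6 of 6 for Rsad2 and Mov10, in 5 for Pml, in 3 for Helz2 and in 2 for Xaf1. All 7 kept the call in the average without any 1 library. Of the 6 members called only without tumor, Usp18, Herc6, Adar, Parp9 and Parp14 lost that call in 5 of 6 fits and Dtx3l in 4. Of the 3 called only with tumor, Isg20 lost that call in 5 of 6 fits and Lgals3bp in 4, and Rtp4 kept it. In the average, the lowest count was 13, without NoTumor-NoCD40 2, and the highest 29, without Tumor-NoCD40 2. The share of all genes that rose also moved with the library left out. Without NoTumor-CD40 1, NoTumor-NoCD40 1, Tumor-CD40 1 or Tumor-NoCD40 1, 15, 19, 16 and 15 members rose in the average. Against 2.17% with all libraries, 1.19%, 1.58%, 1.48% and 1.29% of all genes rose in these fits. Of the 21 members called in the average with all libraries, 13 kept the call without any 1 library. Over the 12 fits, Bst2 lost it in 10, Shisa5 in 8, Nt5c3 in 7, Usp18 and Herc6 in 6 each and Ddx60 in 5. Adar lost it without NoTumor-NoCD40 2, and Parp14 without NoTumor-NoCD40 2 or Tumor-NoCD40 1. By libraries, 26 members lay higher with no overlap between groups without tumor, where 11.2% of all genes did, and 28 with tumor, where 6.5% did. All 6 agonist libraries lay above all 6 others for 18 members, against 1.33% of all genes. Of the 40, 21 did so in both comparisons, against 2.09% of all genes.

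The library titles begin with a date-like prefix, and the pairs of libraries that share it mostly gave the same direction. Without tumor, 39 and 35 of 40 members were higher with the agonist within the 2 prefixes that hold both groups, with median log2 ratios of 0.83 and 0.60. With tumor, the counts were 38, 36 and 37 of 40 in 3 prefixes, with medians of 0.97, 0.54 and 0.94. In all 5 pairs, 29 members were higher, where 6.57% of all genes were. NoTumor-NoCD40 3 has a prefix of its own, so blocking by prefix gives it no weight in the comparisons. In a fit with the prefix as a block, 2 members rose without tumor, 14 with tumor and 21 in the average, where 0.232%, 1.07% and 1.87% of all genes did.

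As a summary of the 40 genes, the median of each library's log2 CPM relative to the gene's mean over 12 libraries was taken. It was −0.28, −0.27 and −0.34 in NoTumor-NoCD40, 0.49, 0.17 and 0.46 in NoTumor-CD40, −0.52, −0.28 and −0.58 in Tumor-NoCD40, and 0.40, 0.39 and 0.23 in Tumor-CD40 libraries. All 6 agonist libraries lay above 0 and all 6 others below it. The group means ± SD (n = 3) were −0.30 ± 0.04, 0.38 ± 0.18, −0.46 ± 0.16 and 0.34 ± 0.10 in the same order. The median of all genes stayed between −0.06 and 0.04 in each library.

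**Figure D2:**
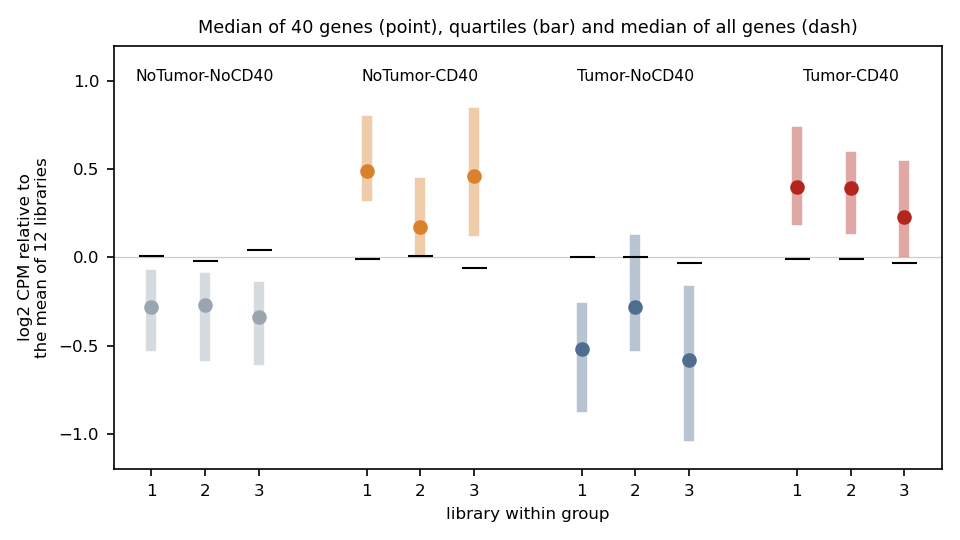
Median over the 40 genes (point) and their quartiles (bar) of log2 CPM relative to the mean of 12 libraries, for each library, with the median of all genes tested as a dash. Agonist libraries sit between 0.17 and 0.49, the others between −0.58 and −0.27.

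In the ISG15 system, 3 of 3 members rose without tumor, 1 with tumor and 3 in the average. Isg15 (ENSMUSG00000035692, chromosome 4, 156199424 to 156200818, minus strand), a ubiquitin-like protein that is attached to other proteins, was at 32.4, 30.4 and 18 CPM in NoTumor-NoCD40 and 141, 70 and 131 CPM in NoTumor-CD40 libraries, a log2 fold change of 2.08 ± 0.27 (adjusted p = 0.00335). In tumor-bearing mice it was at 23.7, 25.5 and 20.4 CPM in Tumor-NoCD40 and 86.5, 75.1 and 76.2 CPM in Tumor-CD40 libraries, 1.77 ± 0.27 (adjusted p = 0.00981). Agonist and other libraries did not overlap in either setting. Usp18, the protease that removes ISG15 and restrains IFNAR2 signaling, was at 48.7, 42.2 and 37.6 CPM in NoTumor-NoCD40 and 111, 67.2 and 99.8 CPM in NoTumor-CD40 libraries, a rise of 1.11 ± 0.22 (adjusted p = 0.0274). With tumor it was at 64.8, 49.5 and 46.4 CPM in Tumor-NoCD40 and 86.2, 73.6 and 57 CPM in Tumor-CD40 libraries, where Tumor-CD40 3 lay below Tumor-NoCD40 1 and the 0.43 ± 0.22 did not pass (adjusted p = 0.553). Herc6, the main ligase that attaches ISG15 in mice, was at 51.5, 38.4 and 36.8 CPM in NoTumor-NoCD40 and 116, 63.8 and 122 CPM in NoTumor-CD40 libraries, a rise of 1.25 ± 0.27 (adjusted p = 0.0371). With tumor it was at 52.4, 34.1 and 65.6 CPM in Tumor-NoCD40 and 82, 68.4 and 72 CPM in Tumor-CD40 libraries, a value of 0.55 ± 0.27 that did not pass (adjusted p = 0.523). The difference between the tumor states was −0.68 ± 0.31 for Usp18 and −0.70 ± 0.38 for Herc6, and the interaction test passed neither (edgeR adjusted p = 0.502 and 0.561).

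Of 12 antiviral effectors, 1 rose without tumor, 2 with tumor and 4 in the average, with medians of 0.36, 0.74 and 0.51. Rsad2 (ENSMUSG00000020641, chromosome 12, 26442746 to 26456452, minus strand), which encodes viperin, an enzyme that makes a chain-terminating nucleotide, rose in both. It was at 13.2, 9.82 and 6.4 CPM in NoTumor-NoCD40 and 40.8, 34.2 and 75.3 CPM in NoTumor-CD40 libraries, 2.35 ± 0.33 (adjusted p = 0.00538), with no overlap between the groups. With tumor it was at 12.4, 12.6 and 10.4 CPM in Tumor-NoCD40 and 30.7, 46.4 and 28.4 CPM in Tumor-CD40 libraries, 1.58 ± 0.33 (adjusted p = 0.0447), again without overlap. Cmpk2, the nucleotide kinase encoded beside it on chromosome 12, was at 10.6, 9.17 and 11.9 CPM in NoTumor-NoCD40 and 19.2, 15.5 and 19.3 CPM in NoTumor-CD40 libraries and at 10.5, 14.1 and 5.99 CPM in Tumor-NoCD40 and 30.7, 13.1 and 20.1 CPM in Tumor-CD40 libraries. Its log2 fold changes of 0.77 ± 0.33 and 1.06 ± 0.33 did not pass (adjusted p = 0.24 and 0.237), and Tumor-CD40 2 lay below Tumor-NoCD40 2. Isg20, an RNA exonuclease, was at 5.93, 9.71 and 6.93 CPM in NoTumor-NoCD40 and 14.2, 15.7 and 13.8 CPM in NoTumor-CD40 libraries and at 5.37, 11 and 3.63 CPM in Tumor-NoCD40 and 27.9, 18.8 and 17 CPM in Tumor-CD40 libraries. It rose with tumor by 1.67 ± 0.35 (adjusted p = 0.0457) and had 0.95 ± 0.35 without (adjusted p = 0.187). The call with tumor was lost in 5 of 6 fits that left out 1 library.

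Bst2 encodes tetherin, which holds budding virions at the cell surface and is also a marker of plasmacytoid dendritic cells. It was at 69.2, 65.8 and 48.8 CPM in NoTumor-NoCD40 and 113, 62.5 and 101 CPM in NoTumor-CD40 libraries and at 64, 53.3 and 51.4 CPM in Tumor-NoCD40 and 106, 101 and 76.9 CPM in Tumor-CD40 libraries, where NoTumor-CD40 2 fell among the untreated libraries. The average of 0.67 ± 0.16 passed (adjusted p = 0.0423) while the separate comparisons did not, and it held only without NoTumor-CD40 2 or Tumor-CD40 3 when libraries were left out. The 8 plasmacytoid markers, Bst2 among them, summed to 170 to 254 CPM in NoTumor-NoCD40, 310 to 589 in NoTumor-CD40, 205 to 269 in Tumor-NoCD40 and 516 to 647 CPM in Tumor-CD40 libraries, with none at 0. Their part in the Bst2 level was not tested. Trim30d, a tripartite motif protein, rose in the average by 0.81 ± 0.15 with no overlap between agonist and other libraries.

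Several antiviral effectors did not pass in any of the 3 agonist tests. Mx1, a dynamin-like GTPase against influenza virus, was at 76.9, 61.7 and 139 CPM in NoTumor-NoCD40 and 81, 67.2 and 86.1 CPM in NoTumor-CD40 libraries and at 84.1, 53.6 and 83.1 CPM in Tumor-NoCD40 and 72.3, 68.4 and 51.5 CPM in Tumor-CD40 libraries, with overlapping groups and log2 fold changes of −0.24 ± 0.27 and −0.20 ± 0.27 (edgeR adjusted p = 0.675 and 0.885). Many laboratory mouse strains carry a defective Mx1, but the labels name no strain and its part in these values was not tested. Transcripts not annotated as protein coding made up 76.7% of the Mx1 TPM. That share ranged from 0% in members such as Isg15 to 94.9% in Mx2, and was 45.7% in Herc6, which rose in the average. Eif2ak2 encodes PKR, the kinase that halts translation on double-stranded RNA. It was at 45.8, 39.8 and 45.4 CPM in NoTumor-NoCD40 and 59.5, 44.4 and 45.5 CPM in NoTumor-CD40 libraries and at 28.2, 47.5 and 24.2 CPM in Tumor-NoCD40 and 55.7, 57.1 and 47.5 CPM in Tumor-CD40 libraries. The values of 0.19 ± 0.23 and 0.68 ± 0.23 did not pass (edgeR adjusted p = 0.695 and 0.288), and Tumor-NoCD40 2 lay at the level of the agonist libraries. Mx2, Slfn5, Slfn8 and Trim30a had averages between 0.41 and 0.55.

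Samd9l, a restrictor of viral translation, had the lowest average of the 40, −0.69 ± 0.28, and was singled out after its values were seen. Fold changes below 0 were also found for Mx1 in both comparisons, for Slfn8 without tumor (−0.08 ± 0.20) and for Epsti1 with tumor. It was at 86.7, 150 and 175 CPM in NoTumor-NoCD40 and 51.6, 103 and 33.3 CPM in NoTumor-CD40 libraries and at 55.6, 122 and 51.1 CPM in Tumor-NoCD40 and 60.4, 62.3 and 68.8 CPM in Tumor-CD40 libraries. Its log2 fold changes of −1.13 ± 0.40 and −0.25 ± 0.40 did not pass (edgeR adjusted p = 0.169 and 0.906).

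**Figure D3:**
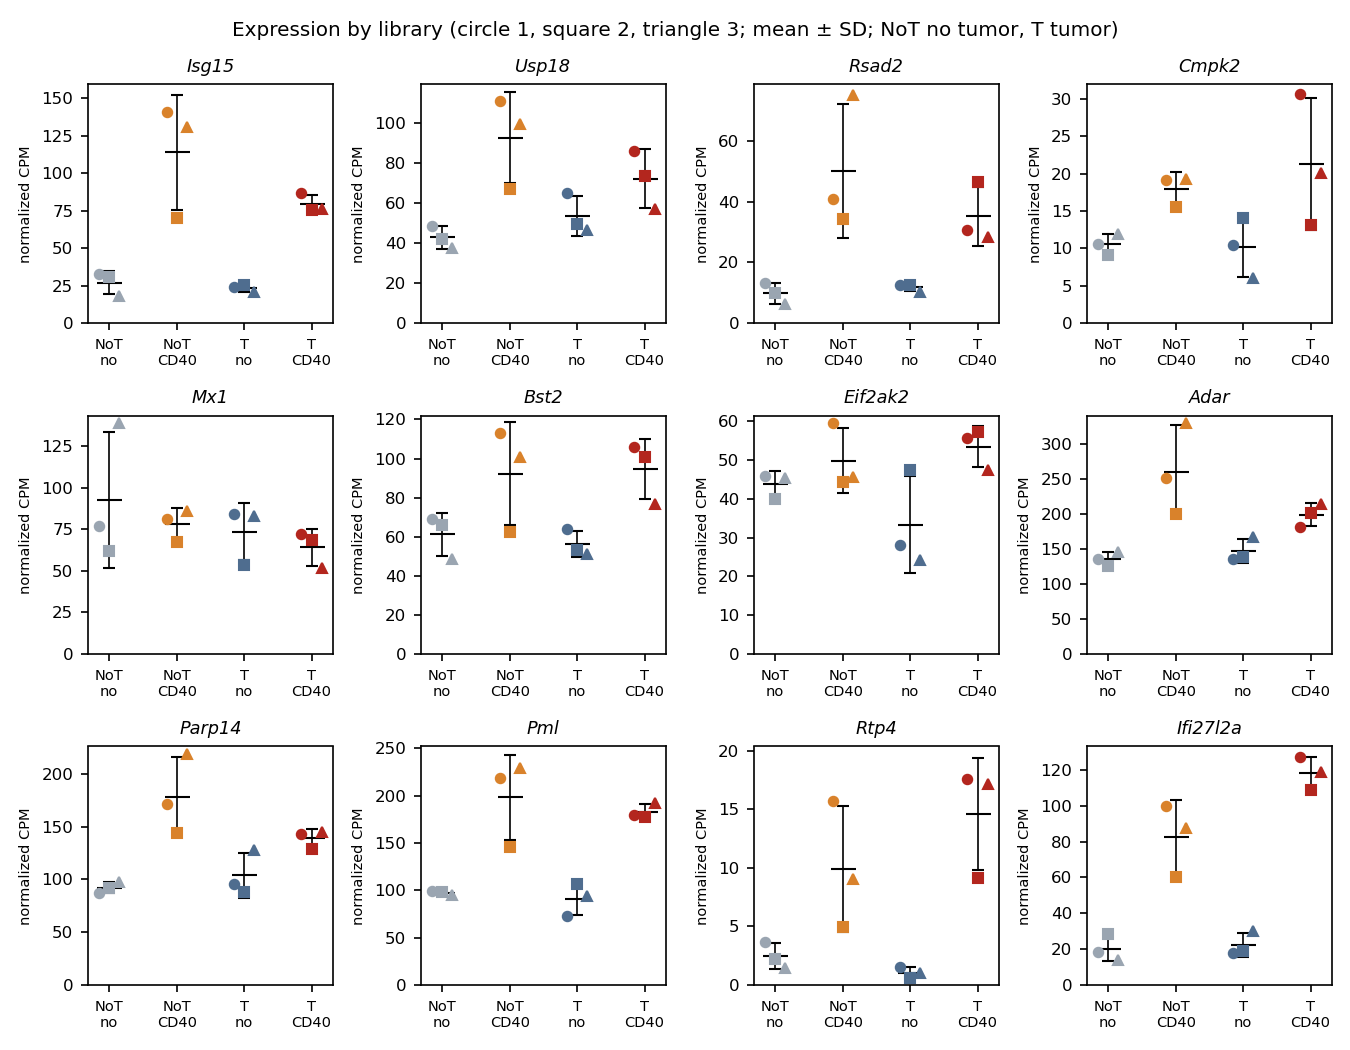
Normalized CPM of 12 members in each library (circle, square and triangle for libraries 1, 2 and 3), with mean ± SD of the 3 libraries per group. Isg15, Rsad2 and Ifi27l2a separate agonist from other libraries in both tumor states, and Mx1 does not.

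Of 5 nucleic acid binding members, 3 rose without tumor, 2 with tumor and 4 in the average, with medians of 1.18, 1.32 and 1.17. Helz2, a nuclear helicase, was at 49.3, 58.7 and 53.6 CPM in NoTumor-NoCD40 and 139, 94.8 and 134 CPM in NoTumor-CD40 libraries and at 55.2, 74.2 and 58.7 CPM in Tumor-NoCD40 and 118, 131 and 220 CPM in Tumor-CD40 libraries. It rose by 1.18 ± 0.24 and 1.32 ± 0.24 (adjusted p = 0.0272 and 0.0202), and no agonist library fell among the others. Mov10, a helicase that restrains retroelements, was at 21, 18.2 and 25.1 CPM in NoTumor-NoCD40 and 56, 37.7 and 60.8 CPM in NoTumor-CD40 libraries and at 26.4, 24.9 and 33.2 CPM in Tumor-NoCD40 and 59.6, 69.7 and 49.7 CPM in Tumor-CD40 libraries. It rose by 1.26 ± 0.22 and 1.08 ± 0.22 (adjusted p = 0.0152 and 0.0403). Of its 31-base sequence words, 12.4% are shared with the annotated copy Gm7357, so reads may be divided between them.

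Adar, which edits adenosine to inosine in double-stranded RNA, was at 136, 126 and 146 CPM in NoTumor-NoCD40 and 251, 199 and 330 CPM in NoTumor-CD40 libraries and at 135, 139 and 167 CPM in Tumor-NoCD40 and 181, 201 and 214 CPM in Tumor-CD40 libraries. It rose without tumor by 0.93 ± 0.18 (adjusted p = 0.0248) and had 0.44 ± 0.18 with tumor (adjusted p = 0.44). Ddx60, a helicase of the RIG-I pathway, was low at 1.68, 2.53 and 3.53 CPM in NoTumor-NoCD40 and 7.28, 3.61 and 7.93 CPM in NoTumor-CD40 libraries and 1.57, 1.77 and 3.41 CPM in Tumor-NoCD40 and 7.36, 5.94 and 11.9 CPM in Tumor-CD40 libraries. Its groups did not overlap in either tumor state, and only the average of 1.58 ± 0.33 passed (adjusted p = 0.0203). Ifi204, a DNA sensor of the PYHIN family, had 1.06 ± 0.32 in the average (edgeR adjusted p = 0.108), and 34.0% of its sequence words are shared with other genes, led by Ifi211.

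The PARP group joins ADP-ribosyltransferases with the ubiquitin ligase Dtx3l, the partner of Parp9. Of its 5 members, 3 rose without tumor, 0 with tumor and 3 in the average. Each of the 3 calls without tumor was lost in 4 or 5 of 6 fits that left out 1 library. Parp14 was at 87.1, 91.9 and 97.3 CPM in NoTumor-NoCD40 and 171, 144 and 219 CPM in NoTumor-CD40 libraries and at 95.7, 88 and 128 CPM in Tumor-NoCD40 and 143, 129 and 145 CPM in Tumor-CD40 libraries. It rose without tumor by 0.95 ± 0.19 (adjusted p = 0.0229) and had 0.42 ± 0.18 with tumor (adjusted p = 0.464), with no overlap in either. Dtx3l was at 135, 113 and 116 CPM in NoTumor-NoCD40 and 221, 189 and 294 CPM in NoTumor-CD40 libraries and at 143, 129 and 151 CPM in Tumor-NoCD40 and 180, 218 and 188 CPM in Tumor-CD40 libraries, with log2 fold changes of 0.95 ± 0.18 and 0.47 ± 0.18 (adjusted p = 0.0195 and 0.365). Parp9 rose by 0.70 ± 0.16 without tumor and had 0.65 ± 0.16 with tumor (edgeR adjusted p = 0.049 and 0.0948). Parp9 and Dtx3l overlap on opposite strands of chromosome 16, and the sources used here do not say whether strand was used in quantification. Parp10 and Parp12 had averages of 0.47 ± 0.19 and 0.43 ± 0.16, which did not pass (edgeR adjusted p = 0.221 and 0.204).

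The interaction is the agonist effect with tumor minus that without. It passed no test, and its signs are given by role as a description, since differences between roles were not tested. It was above 0 in 10 of 12 antiviral effectors (median 0.32), in 8 of 10 other members (0.36), in 3 of 5 nucleic acid binding members (0.14) and in 2 of 5 nuclear body members (−0.02). It was below 0 in 4 of 5 PARP members (−0.48) and in 3 of 3 ISG15 members (−0.68). The median interaction was 0.13 over the 40 members and 0.03 over all genes. No member passed the interaction test, and the lowest adjusted p among members was 0.495 with edgeR, where 0% of all genes passed. At an unadjusted p under 0.05, 2 members were higher and 2 lower, and 9.8% of all genes passed in either direction.

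Pml was the member of the nuclear body group that rose in both agonist comparisons. It encodes the scaffold of PML nuclear bodies and was at 99.2, 98.4 and 94.9 CPM in NoTumor-NoCD40 and 219, 146 and 229 CPM in NoTumor-CD40 libraries and at 72.8, 107 and 94.1 CPM in Tumor-NoCD40 and 180, 177 and 192 CPM in Tumor-CD40 libraries. The rises were 1.02 ± 0.19 and 1.01 ± 0.19 (adjusted p = 0.0177 and 0.0269), without overlap between groups. Sp100 and Daxx, other components of these bodies, had averages of 0.25 ± 0.15 and 0.50 ± 0.14, which did not pass (edgeR adjusted p = 0.417 and 0.0856). Phf11d and Phf11b had 0.61 ± 0.17 and 0.60 ± 0.16 and did not pass (edgeR adjusted p = 0.0797 and 0.074). For Phf11b, 62.9% of sequence words are shared, mostly with Phf11a, so its count is uncertain.

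Among the 10 other members, 2 rose without tumor, 4 with tumor and 6 in the average, with medians of 0.76, 1.04 and 0.81. Ifi27l2a (ENSMUSG00000079017, chromosome 12, 103442167 to 103443680, minus strand), a small interferon-induced membrane protein, was at 18.6, 28.2 and 14.2 CPM in NoTumor-NoCD40 and 100, 60.2 and 87.6 CPM in NoTumor-CD40 libraries, 2.02 ± 0.28 (adjusted p = 0.0037). With tumor it was at 17.6, 19.1 and 30.2 CPM in Tumor-NoCD40 and 127, 109 and 119 CPM in Tumor-CD40 libraries, 2.40 ± 0.28 (adjusted p = 0.00174). The groups lay far apart in both settings, and all 15 alternatives of each comparison kept the call. Rtp4 (ENSMUSG00000033355, chromosome 16, 23520291 to 23614222, plus strand), a chaperone of receptor transport, had the largest fold change of the 40. With tumor it was at 1.57, 0.565 and 1.05 CPM in Tumor-NoCD40 and 17.6, 9.12 and 17.2 CPM in Tumor-CD40 libraries, 3.79 ± 0.55 (adjusted p = 0.00723). Without tumor it was at 3.67, 2.19 and 1.48 CPM in NoTumor-NoCD40 and 15.7, 4.99 and 9.08 CPM in NoTumor-CD40 libraries, 2.0 ± 0.49, which did not pass (adjusted p = 0.0618). Its lowest library held 15 counts and its highest 433, and the interaction was 1.79 ± 0.80 (adjusted p = 0.501). Other genes, led by Gm45338, which overlaps Rtp4 on the same strand, share 12.5% of its sequence words.

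Xaf1, which binds the apoptosis inhibitor XIAP, was at 12.9, 11 and 10 CPM in NoTumor-NoCD40 and 32.4, 23.2 and 18.9 CPM in NoTumor-CD40 libraries and at 8.26, 8.28 and 9.01 CPM in Tumor-NoCD40 and 24.5, 20.7 and 25.1 CPM in Tumor-CD40 libraries. It rose by 1.13 ± 0.23 and 1.46 ± 0.24 (adjusted p = 0.0297 and 0.013), with no overlap. Lgals3bp, a secreted glycoprotein that binds galectins, was at 96.3, 130 and 88.2 CPM in NoTumor-NoCD40 and 174, 176 and 171 CPM in NoTumor-CD40 libraries and at 70.4, 119 and 79 CPM in Tumor-NoCD40 and 175, 240 and 181 CPM in Tumor-CD40 libraries. It rose with tumor by 1.15 ± 0.22 (adjusted p = 0.0265) and had 0.73 ± 0.21 without (adjusted p = 0.111). Nt5c3 and Shisa5 rose in the average, each by 0.69. Ifi44, Ifi35 and Tor3a had averages of 1.14 ± 0.33, 0.36 ± 0.12 and 0.28 ± 0.14 and did not pass (edgeR adjusted p = 0.0935, 0.141 and 0.297).

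Nt5c3 (ENSMUSG00000029780, chromosome 6, 56882400 to 56923932, minus strand), a pyrimidine nucleotidase, has transcripts from 3 starts, of which that at 56889863 was listed at 0 in 8 of 12 libraries and reached 0.479 TPM. Levels by start are TPM, a length-scaled unit, summed over transcripts, and were not tested. Transcripts from the downstream start (56901883 to 56901886) were at 9.27, 7.59 and 8.76 TPM in NoTumor-NoCD40 and 28.9, 15.1 and 34.6 TPM in NoTumor-CD40 libraries. With tumor they were at 7.28, 11.8 and 6.86 TPM in Tumor-NoCD40 and 19.6, 17.5 and 21.1 TPM in Tumor-CD40 libraries. All 6 agonist libraries lay above the other 6. Transcripts from the upstream start (56923724 to 56923932) were at 15.2 ± 3.34 and 15.5 ± 6.10 TPM without tumor and at 8.48 ± 2.60 and 7.84 ± 3.14 TPM with tumor (SD, n = 3), agonist second. The downstream share of the gene's TPM thus went from 36.1% ± 2.80 to 62.0% ± 13.4 without tumor and from 50.4% ± 12.5 to 71.5% ± 10.3 with tumor. The downstream promoter in the table held no ISRE core match in its 300 bases.

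**Figure D4:**
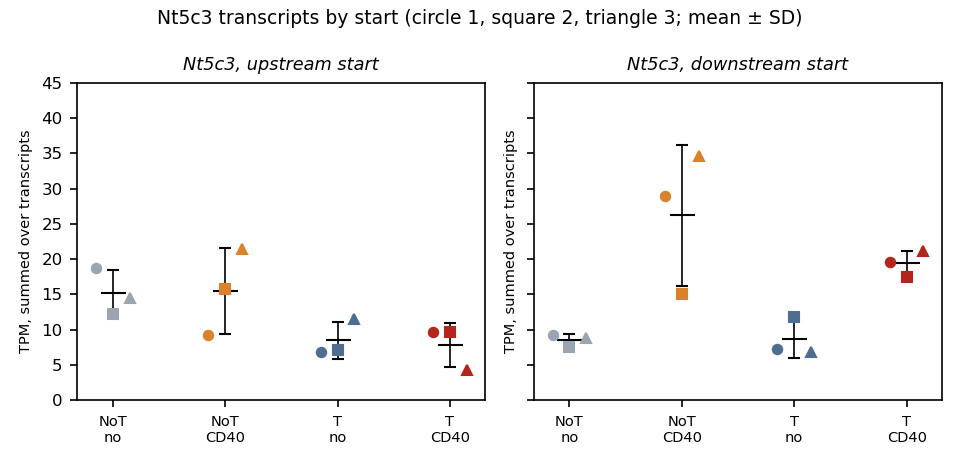
Summed TPM of Nt5c3 transcripts from the upstream start (left) and the downstream start (right) in each library, with mean ± SD of 3 libraries per group. Downstream transcripts are at 15.1 to 34.6 TPM in agonist libraries and 6.86 to 11.8 TPM in the others, while the upstream ones overlap.

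Rsad2 and Adar also have several starts, whose levels were not tested either. Rsad2 transcripts from the main start went from 1.75 ± 0.63 to 10.8 ± 6.28 TPM without tumor and from 2.30 ± 0.21 to 7.23 ± 2.03 TPM with tumor. Those from a start inside the gene at 26454842 had 1.71 ± 1.49 and 1.68 ± 2.9 TPM without tumor and were listed at 0 in 7 of 12 libraries. For Adar, the share of TPM from the start at 89730748 had group means of 80.5% ± 11.9 and 86.2% ± 2.88 without tumor and 77.9% ± 6.65 and 87.4% ± 9.09 with tumor (SD, n = 3), agonist second. Its summed TPM went from 16.8 ± 1.32 to 33.0 ± 12.7 and from 15.8 ± 3.0 to 24.6 ± 1.89. Estimates for transcripts that share exons are less certain than the sum of a gene.

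Per length, Epsti1 (ENSMUSG00000022014, chromosome 14, 77904239 to 78002657, plus strand) was by far the most abundant of the 40, at a mean of 1290 TPM over 12 libraries. Shisa5 followed at 167 TPM and Ifi27l2a at 163 TPM, and Ddx60 was lowest at 0.89 TPM. Epsti1, an interferon-responsive gene, did not follow the agonist. It was at 3580, 2080 and 1100 CPM in NoTumor-NoCD40 and 4000, 2540 and 5360 CPM in NoTumor-CD40 libraries and at 4430, 1280 and 5200 CPM in Tumor-NoCD40 and 2510, 2340 and 1930 CPM in Tumor-CD40 libraries. The log2 fold changes of 0.81 ± 0.47 and −0.69 ± 0.47 did not pass (edgeR adjusted p = 0.373 and 0.694), nor did the interaction of −1.50 ± 0.67 (edgeR adjusted p = 0.501).

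The order of the Epsti1 levels was close to that of mature dendritic cell genes. Fscn1, the actin bundler of mature dendritic cells, was at 4560, 2580 and 1650 CPM in NoTumor-NoCD40 and 8100, 4960 and 12400 CPM in NoTumor-CD40 libraries and at 6630, 2340 and 8680 CPM in Tumor-NoCD40 and 5130, 4300 and 4370 CPM in Tumor-CD40 libraries. In NoTumor-NoCD40, NoTumor-CD40 and Tumor-NoCD40, the library order within the group was the same for Epsti1 and Fscn1. Samd9l instead followed the order of Xcr1, 1 of the 10 cDC1 markers, in Tumor-NoCD40 and NoTumor-CD40, where Xcr1 was at 257, 686 and 73.1 CPM and 249, 533 and 49.5 CPM. The summed cDC1 markers had the order of Samd9l in these 2 groups. They had another order in NoTumor-NoCD40 (4480, 5630 and 5570 CPM) and Tumor-CD40 (3170, 3590 and 2780 CPM). The part of maturation in the values of Epsti1 and Samd9l was not tested.

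**Figure D5:**
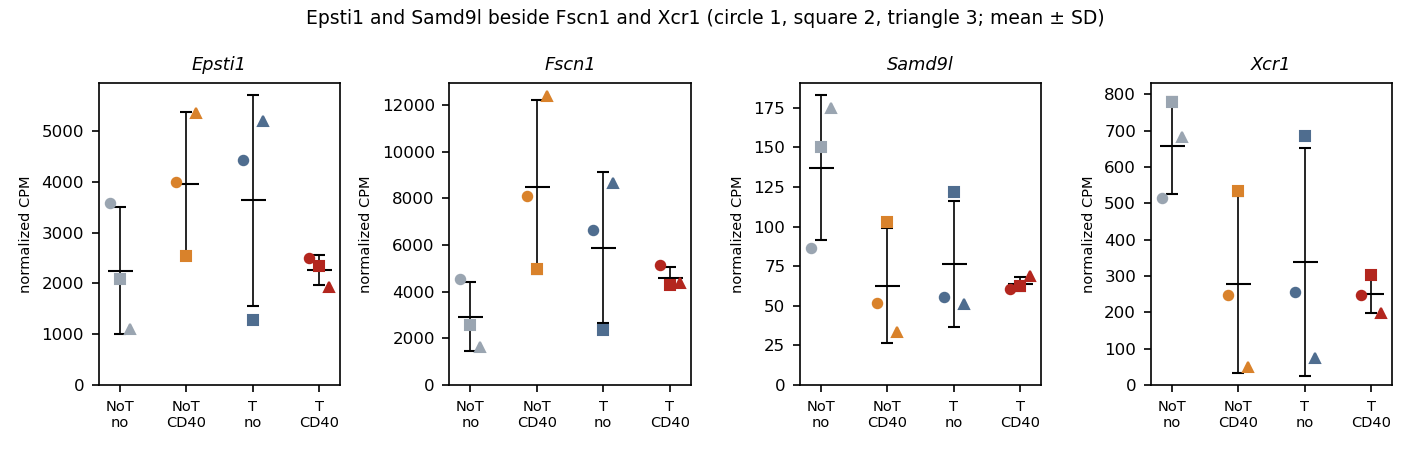
Normalized CPM of Epsti1, Fscn1, Samd9l and Xcr1 in each library (circle, square and triangle for libraries 1, 2 and 3), with mean ± SD of 3 libraries per group. In Tumor-NoCD40, library 2 is the lowest for Epsti1 and Fscn1 and the highest for Samd9l and Xcr1.

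Tumor-NoCD40 2 stood apart from the other libraries of its group for a subset of members. It was the highest of its group for 22 of 40 members, and libraries 1 and 3 were for 5 and 13. The share of all genes for that count was not taken. In this group the highest library was at a median of 1.71-fold the lowest for members and 2.07-fold for all genes. For 7 members, Tumor-NoCD40 2 lay more than 1 log2 unit above the mean of libraries 1 and 3, where 8.87% of all genes did so. These 7 were Ifi204 (1.95), Ifi44 (1.68), Trim30a (1.44), Slfn5 (1.41), Mx2 (1.31), Isg20 (1.22) and Samd9l (1.18). Epsti1 was the 1 member more than 1 unit lower, at −1.90, where 11.2% of all genes were. Without that library, the median agonist effect with tumor moved from 0.68 to 0.93. Within groups, the median SD of log2 CPM was 0.31 for members and 0.46 for all genes.

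The tumor itself moved no member past the threshold. Without the agonist, 0 of 40 members passed with edgeR, where 0% of all genes did, and the median was −0.14. At an unadjusted p under 0.05, 0 members were higher and 1 lower, and 5.82% of all genes passed in either direction. With the agonist, 0 of 40 passed, where 0.199% of all genes did, the median was −0.06, and 2 were higher and 1 lower at an unadjusted p under 0.05, against 9.32% of all genes. DESeq2, limma-voom and the other tools tried also called 0 members in either tumor comparison. The lowest adjusted p among members was 0.775 without and 0.288 with the agonist. Without the agonist, Slfn8 and Xaf1 lay lower with tumor with no overlap (4.92% of all genes did) and 0 members higher (4.06%). With it, Isg20, Slfn8, Ifi27l2a and Shisa5 lay higher with tumor with no overlap between libraries (6.68% of all genes did), and Phf11d and Epsti1 lower (6.2%).

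B cell markers moved with the agonist in tumor-bearing mice. Their 8 genes summed to 50.9 to 136 CPM in Tumor-NoCD40 and 675 to 1880 CPM in Tumor-CD40 libraries, and 7 of 8 rose. Without tumor they summed to 27.2 to 88.6 and 72.8 to 228 CPM, 7 of 8 had a fold change above 0 (median 1.62), and 0 of 8 rose in edgeR. No B cell marker of the list was at 0 in all libraries. Macrophage markers summed to 7.68 to 23.4 and 26 to 47.9 CPM with tumor, with Vsig4 at 0 in all libraries. The part of B cells and macrophages in the members' values was not tested.

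In the interferon pathway, 18 of 21 ligand genes were listed at 0 in all 12 libraries, among them Ifnb1 and each Ifna gene of the list. The part of this pathway in the members' values was not tested. Ifng was between 0.12 and 8.43 CPM, Ifnl3 reached 2.18 CPM in NoTumor-CD40 1, and Ifng, the 1 ligand gene that passed the filter on low counts, passed in no comparison. Of 6 receptor genes, 0 passed in any agonist comparison. Ifnar1 had averages of −0.18 ± 0.17 and Ifnar2 of 0.02 ± 0.13. Among signaling genes, Stat2 (0.57 ± 0.13, edgeR adjusted p = 0.0381) and Irf7 (1.33 ± 0.31, edgeR adjusted p = 0.0379) rose in the average, and Irf1 rose without tumor (1.59 ± 0.37, edgeR adjusted p = 0.0499). Irf9 had 0.46 ± 0.11 with an adjusted p of 0.0504 in edgeR, just above the threshold. Of 6 inhibitors of the pathway, 0 passed, and Socs1, which blocks JAK kinases, had 0.29 ± 0.20.

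Beside the families left out of this list, the 40 genes had lower median fold changes. The 8 Oas genes had medians of 2.32 without tumor, 2.01 with tumor and 2.12 on average, and 4 rose in each. The 8 Ifit and Ifitm genes had medians of 1.43, 1.53 and 1.56, with 3, 2 and 5 rising. The 15 GTPase genes had 0.93, 0.86 and 0.95, with 3, 3 and 10 rising. The differences between these lists were not tested.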

How the data were processed

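Total RNA of inguinal lymph node cDC1 was made into directional libraries, per the labels' protocols. The submitters' processing notes name Salmon and mm10. Per transcript, 2 units are deposited, expected counts with no normalization and TPM, in which length and library size are taken out. Version, annotation and strand settings are not given in the sources used here. Of 136288 transcripts, 136176 were matched to GENCODE M21 (GRCm38) and summed to 53458 genes. Expected counts were rounded. edgeR 4.0.16 in R 4.3.3 was used with TMM factors (0.936 to 1.074), filterByExpr by group (minimum count 10, total 15), a 4-group model over 12 libraries with 8 residual degrees of freedom (legacy = FALSE) and quasi-likelihood F tests, with Benjamini-Hochberg adjustment and a threshold of 0.05. SE was obtained by dividing the size of the log2 fold change by the root of F. Alternatives used DESeq2 1.42.0 and limma 3.58.1. The test was tried on simulated data. The members, lists and tests were chosen with earlier results of these data known. Values in every library are given for a panel of 12 members and for up to 10 risen members per comparison with the largest fold change, and other members by range or count. Sequence words of 31 bases measured sharing between genes, and starts within 500 bases were joined. The list of signaling genes is not reported in full here.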

Additional observations from a re-analysis of the deposited data

Results flagged for a closer look

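Slfn8, a Schlafen family member, lay on opposite sides with tumor depending on the agonist. It was singled out after its values were seen. Without the agonist it was at 24.1, 25.1 and 28.9 CPM in NoTumor-NoCD40 and 15.6, 21.9 and 22.6 CPM in Tumor-NoCD40 libraries, all lower, where 4.92% of all genes were. With the agonist it was at 25.7, 21.4 and 26.5 CPM in NoTumor-CD40 and 38.2, 30.9 and 43.3 CPM in Tumor-CD40 libraries, all higher, where 6.68% of all genes were. The tumor effects of −0.37 ± 0.21 without and 0.61 ± 0.20 with the agonist did not pass (edgeR adjusted p = 0.775 and 0.373). The tumor effect with the agonist minus that without was 0.98 ± 0.29 (SE), which did not pass edgeR's interaction test (adjusted p = 0.495). Of its 31-base sequence words, 26.8% are shared with other genes, led by Slfn9.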

How the results depend on the processing

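The 44 calls of single members gave 765 values under the alternatives. All kept their direction, 537 passed the threshold and 228 did not. Without tumor, 13 risen members became 2 with limma on log2(TPM + 1) and on log2(TPM + 0.1), and 8 in a fit of the 2 groups alone. The share of all genes that rose went from 1.36% to 0.155% with either TPM pseudocount and to 1.07% in the fit of 2 groups. With tumor, 10 became 16 with DESeq2, 5 with limma-voom, 3 with either TPM pseudocount and 3 in a fit of the 2 groups alone. All genes that rose went from 0.641% to 1.39% with DESeq2 and 0.199% with limma-voom. They were 0.155% and 0.116% with the TPM pseudocounts of 1 and 0.1, and 0.161% in the fit of 2 groups. In the average, 21 became 8 and 10 with the TPM pseudocounts of 1 and 0.1, where all genes that rose went from 2.17% to 0.713% and 0.79%. The cause was not tested. With 1 library left out, the counts ranged from 2 to 17, 2 to 14 and 13 to 29. The share of all genes that rose ranged from 0.106% to 3.33% without tumor and from 0.132% to 0.649% with tumor. The median log2 fold change ranged from 0.61 to 0.93 with tumor, from −0.29 to −0.02 for the tumor without agonist and from 0 to 0.28 for the interaction, the upper end of the first and last, and the lowest of the tumor effect, being without Tumor-NoCD40 2. Library size factors of DESeq2 and no filter moved the median of all genes by less than 0.1. The share of members with the promoter core moved from 36.7% to 30% before the start.

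With the title prefix as a replicate block, 2 members rose without tumor, 14 with tumor and 21 in the average, beside 0.232%, 1.07% and 1.87% of all genes. Deviations from the group means correlated at 0.002 to 0.38 in the 15 pairs of libraries with the same prefix, over 0.1 in 6 of them, and at −0.332 to 0.161 in 39 pairs with other prefixes. Of 11 libraries with a partner, 10 were closest to one of their own prefix, a hint from the data and not from the design. Since not every pair was over 0.1 and the labels do not say what the prefix marks, it was not taken to pair the libraries.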
